A study of Mus musculus with 36 samples.

Results

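The core of the Hippo pathway and its TEAD transcription factors were followed through mouse intestinal organoids in 6 culture conditions. The genes were the coactivators Yap1 and Wwtr1, which encodes TAZ, the 4 TEAD factors Tead1, Tead2, Tead3 and Tead4, the kinase Lats1, its scaffold Sav1, the upstream regulator Nf2 and the TEAD-binding cofactor Vgll4. They were chosen by symbol, 10 of the 52636 genes listed in the count files, and each symbol matched 1 Ensembl identifier. A mean level of 0.5 CPM (read counts scaled by library size and a TMM factor) was required for a gene to be described as detected, and all 10 were detected, from 4.48 CPM for Tead2 to 113 CPM for Nf2.

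Organoids from the jejunum of C57BL/6 mice were grown from crypts of 6 mice, and RNA of each culture was sequenced in bulk. Every condition carried an antibody, either control IgG or anti-Ptk7, which binds the Wnt co-receptor Ptk7. Complete media (Intesticult) with IgG was the reference. Conditioned media came from mouse embryonic fibroblasts that were quiescent (QCM, with IgG) or senescent (SCM, with IgG or with anti-Ptk7), and Wnt5a, a noncanonical Wnt ligand, was added to complete media with IgG or with anti-Ptk7. Each of the 6 conditions had 6 libraries. The labels number the libraries of a condition but do not say which mouse each came from, so the p-values measure the spread between these libraries.

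In the Hippo pathway a kinase cascade in the cytoplasm restrains a pair of coactivators. The Mst kinases, helped by the scaffold Sav1, activate the Lats kinases, and Nf2 brings Lats to the cell membrane. Active Lats phosphorylates Yap1 and TAZ and keeps them out of the nucleus. When the cascade is off, Yap1 and TAZ enter the nucleus and bind TEAD factors, which supply the contact with DNA, and Vgll4 competes with them for TEAD. In the gut epithelium the pathway is known for its part in regeneration after injury. Much of this control acts on proteins and their location, which RNA levels do not show.

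Library totals ran from 9581589 to 21029769 counts over the 36 libraries, with a median of 13490071. SCM with IgG replicate 1 lay farthest from the other libraries of its condition, at a root mean square distance of 0.83 on the log2 scale over all genes tested, against 0.44 to 0.77 for the others. The epithelial markers were high, with a summed level of 8909 to 32309 CPM over 8 genes and means of 10017 CPM in complete media, 16267 CPM in SCM with IgG and 18387 CPM in Wnt5a with IgG. Of 8 fibroblast markers 1, Pdgfrb, had a mean over 0.5 CPM, their summed condition means were 1.41 to 4.43 CPM, and Col3a1, Dcn and Thy1 had no count in any of the 36 libraries. Summed immune (5 genes) and endothelial (3 genes) markers averaged at most 1.89 and 0.482 CPM in any condition. Summed tuft cell markers, 4 genes, averaged 9.24 CPM in complete media, 12.03 CPM in SCM with IgG and 26.1 CPM in Wnt5a with IgG, and summed stem cell markers, also 4 genes, averaged 1983, 1569 and 1620 CPM in the same order. Enterocyte markers (4 genes) averaged 930 CPM in complete media, 1378 CPM in SCM with IgG and 1086 CPM in Wnt5a with IgG. Paneth cell markers (4 genes) averaged 3912, 3834 and 3210 CPM in these and 2748 CPM in Wnt5a with anti-Ptk7. Goblet cell markers (4 genes) moved less, at 1568 CPM in complete media, 1527 CPM in SCM with IgG and 1547 CPM in Wnt5a with IgG. Enteroendocrine markers (4 genes) averaged 361, 373 and 393 CPM in the same order. Whether such shifts in the make-up of the cultures have a part in the values below was not tested, and in bulk samples fewer cells of a type and less RNA per cell cannot be told apart.

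The genes lie on 8 chromosomes (GENCODE vM21, GRCm38). Yap1 is at chr9:7931999-8004596 (minus strand), Wwtr1 at chr3:57455649-57575910 (minus), Tead1 at chr7:112679318-112906807 (plus), Tead2 at chr7:45215753-45233644 (plus) and Tead3 at chr17:28331671-28350817 (minus). Tead4 is at chr6:128224288-128300823 (minus), Lats1 at chr10:7681214-7716460 (plus), Vgll4 at chr6:114860628-114969994 (minus), Nf2 at chr11:4765845-4849536 (minus) and Sav1 at chr12:69965012-69987002 (minus). Genes on the opposite strand overlap some of them, and the strand setting of the counting is not given in the sources used here. The highest of these neighbours were Atl1 (2.76 CPM) and the pseudogene Gm19221 (1.99 CPM) at Sav1, which itself averaged 11.3 CPM, and Gm20416 (1.65 CPM) at Yap1. Reads of such a pair cannot be told apart without strand.

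Promoters of 4 of the genes are shown because their RNA behaved differently: Wwtr1 and Tead2, which rose in Wnt5a, Vgll4, which was lower there, and Yap1, which was not called against complete media. Each sequence is the stretch before the RefSeq start (GRCm38.p6), at most 250 bases, 5′ to 3′ on the gene's strand, and capitals mark GGAATG, the core of the element bound by TEAD factors, on either strand. For Tead2 the stretch ends where the first GENCODE exon begins, and the Vgll4 stretch lies in an intron of a longer GENCODE transcript.
Wwtr1 promoter, chr3:57575911-57576160, minus strand: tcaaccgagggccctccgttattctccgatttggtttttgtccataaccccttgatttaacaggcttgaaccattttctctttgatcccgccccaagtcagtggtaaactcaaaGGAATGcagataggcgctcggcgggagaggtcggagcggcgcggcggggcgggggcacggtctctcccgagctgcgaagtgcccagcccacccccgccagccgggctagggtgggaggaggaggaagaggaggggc
Tead2 promoter, chr7:45215542-45215752, plus strand: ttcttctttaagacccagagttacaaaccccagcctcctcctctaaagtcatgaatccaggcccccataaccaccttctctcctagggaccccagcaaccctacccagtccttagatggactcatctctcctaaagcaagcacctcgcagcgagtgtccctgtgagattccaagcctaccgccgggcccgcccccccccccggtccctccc
Vgll4 promoter, chr6:114969204-114969453, minus strand: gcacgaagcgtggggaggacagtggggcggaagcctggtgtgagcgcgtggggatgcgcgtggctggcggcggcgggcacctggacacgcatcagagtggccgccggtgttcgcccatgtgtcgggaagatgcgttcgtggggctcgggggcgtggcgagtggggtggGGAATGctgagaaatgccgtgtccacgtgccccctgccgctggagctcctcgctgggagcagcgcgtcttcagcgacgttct
Yap1 promoter, chr9:8004597-8004846, minus strand: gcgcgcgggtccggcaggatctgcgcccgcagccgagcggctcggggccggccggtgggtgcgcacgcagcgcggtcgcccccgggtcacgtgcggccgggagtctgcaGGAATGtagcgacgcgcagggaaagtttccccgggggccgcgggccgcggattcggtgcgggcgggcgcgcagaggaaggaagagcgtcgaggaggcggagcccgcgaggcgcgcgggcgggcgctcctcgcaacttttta

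The TEAD core began 136 bases before the start of Wwtr1, 141 bases before that of Yap1 and 82 bases before that of Vgll4, and these letters were not in the 250 bases before Tead2. The RefSeq promoter table used here held entries for 8 of the 10 genes (Tead1 and Tead4 were not analysed), and 5 of those 8 held the core in at least 1 of their 250-base windows: Wwtr1, Yap1, Vgll4, Sav1 and Tead3. Counted by window, as some genes have more than 1, 7 of their 12 windows held it, with the same site in both overlapping windows of Wwtr1, and over all 32851 promoter windows of that length the share was 12.6%. The motif TGANTCA, bound by AP-1 factors, which often sit beside TEAD, was in none of the windows of the 8 genes and in 6.75% of all promoters. A match describes letters and is no evidence of binding, and genes with the core included both Wwtr1, which rose, and Vgll4, which was lower.

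Levels of different genes were compared per kilobase. Reads within coding sequence had been counted, so coding length is the closer measure, and all exons are given as the other length. Per kilobase of coding sequence, the means over the 36 libraries were 70.7 CPM for Vgll4, 53.3 for Nf2, 46.0 for Yap1, 19.4 for Lats1, 13.9 for Tead1 and 9.78 for Sav1. The lowest were Tead4 (5.95 CPM per kb), Tead3 (5.08), Wwtr1 (3.55) and Tead2 (3.36). By the length of all exons, Nf2 (16.5 CPM per kb), Vgll4 (12.1), Lats1 (9.02) and Yap1 (7.43) were highest and the other 6 lay between 2.15 and 0.936. The order thus depended on the length, with Tead1 ahead of Tead4 by coding length and behind it by exon length, and on both lengths Yap1 was above Wwtr1.

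**Figure D1:**
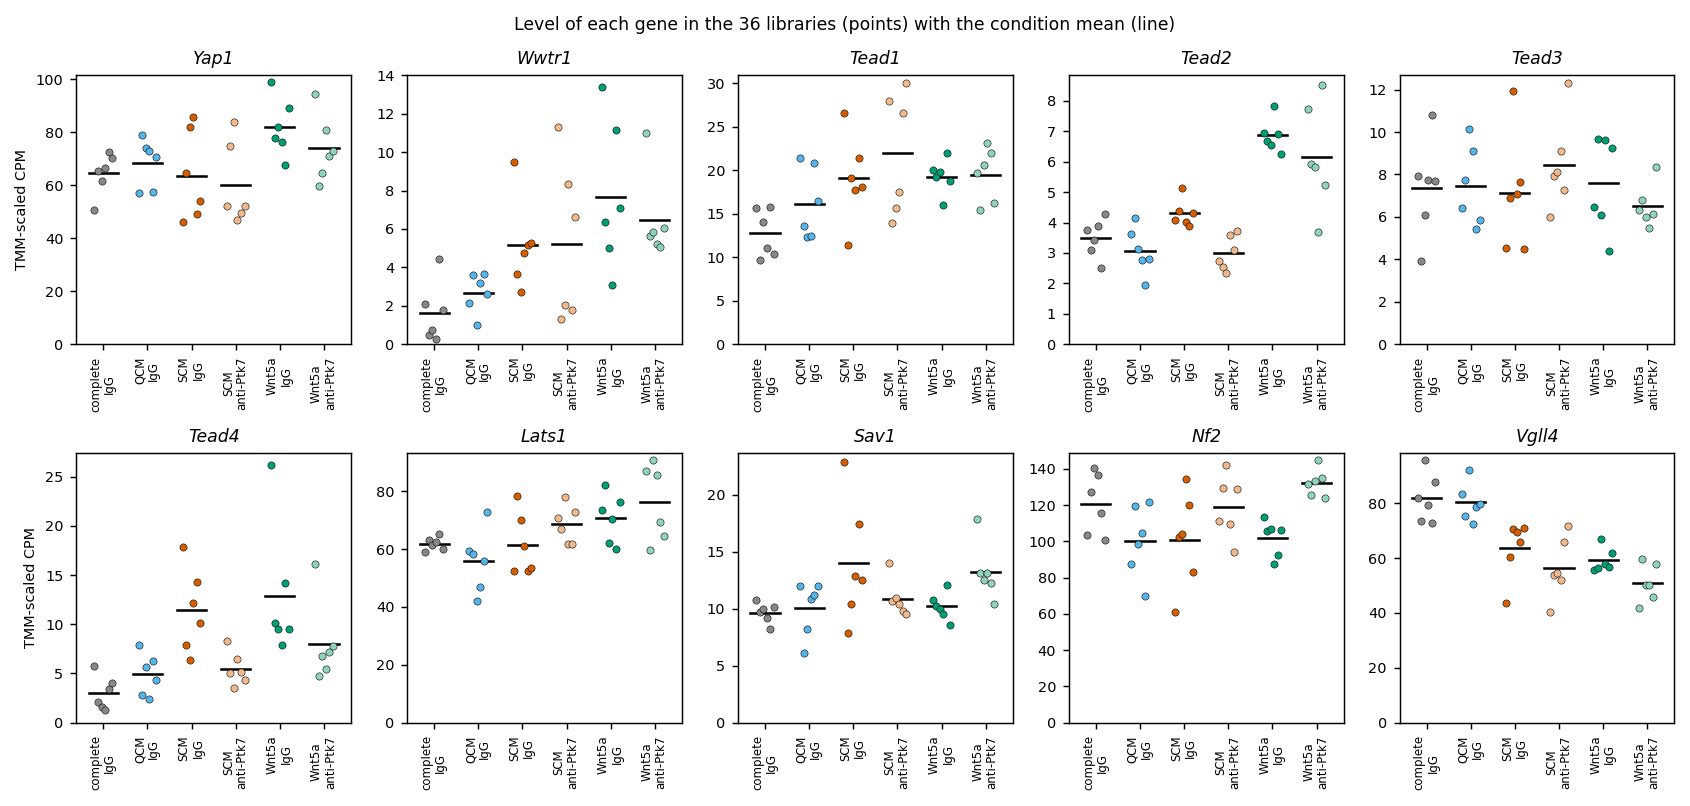
TMM-scaled CPM (y axis, linear from 0, a scale for each gene) of the 10 genes in the 36 libraries, 6 for each condition (x axis). Points are libraries and lines are condition means. Tead4 and Wwtr1 sit higher in SCM with IgG and Wnt5a with IgG than in complete media, Tead2 is higher in Wnt5a, and Vgll4 is lower in SCM and Wnt5a.

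Between the 6 conditions, 7 of the 10 genes differed somewhere. In edgeR's joint quasi-likelihood test with Benjamini-Hochberg adjustment (from here "edgeR adjusted p"), Tead2 (8.23e-07), Vgll4 (1.29e-05), Tead4 (6.72e-05), Wwtr1 (0.00463), Tead1 (0.0189), Lats1 (0.0209) and Nf2 (0.0424) passed 0.05. Over all 15497 genes tested, 39.5% passed that test. Sav1 (edgeR adjusted p = 0.0532), Yap1 (0.105) and Tead3 (0.796) did not. For single comparisons a gene was called where its edgeR adjusted p was under 0.05 and its fold change over 1.5. None of the 10 genes was called in QCM, 2 rose in SCM and 4 rose in Wnt5a, each against complete media with IgG.

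Tead4, the TEAD factor with the widest swing, ran from 1.32 to 5.73 CPM in complete media (median 2.75) and from 2.40 to 7.85 CPM in QCM (median 5.00). In SCM with IgG it ran from 6.35 to 17.8 CPM with a median of 11.1 CPM. In Wnt5a with IgG it ran from 7.84 to 26.2 CPM with a median of 9.82 CPM. Every library of SCM with IgG and of Wnt5a with IgG was above every library of complete media, while QCM overlapped with all 3. Against complete media, Tead4 rose by a log2 fold change of 1.92 ± 0.36 (SE) in SCM (3.79-fold, edgeR adjusted p = 0.000416) and 2.09 ± 0.36 in Wnt5a (4.26-fold, edgeR adjusted p = 7.66e-05). In QCM the log2 fold change was 0.70 with a 95% interval from -0.04 to 1.43 (edgeR adjusted p = 0.450). Both calls held without any 1 library.

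Wwtr1, which encodes TAZ, had the lowest level in complete media, from 0.293 to 4.44 CPM (median 1.26), which was 4 to 57 counts a library. In QCM it ran from 0.977 to 3.63 CPM with a median of 2.89 CPM. In SCM with IgG the range was 2.74 to 9.498 CPM (median 4.95), and in Wnt5a with IgG it was 3.09 to 13.4 CPM (median 6.72). The highest library of complete media, replicate 5, reached into the range of both groups, so these groups overlapped. Wwtr1 rose by 1.65 ± 0.51 (log2, SE) in SCM (edgeR adjusted p = 0.0279) and by 2.22 ± 0.51 in Wnt5a (edgeR adjusted p = 0.00159). The SCM call was lost when complete media replicate 2 (edgeR adjusted p = 0.0695), 3 (0.0753) or 4 (0.0755) or SCM with IgG replicate 1 (0.107) was left out, with log2 fold changes between 1.377 and 1.498. It was also lost by limma with quantile normalization, the test the study used (log2 fold change 1.86, limma adjusted p = 0.0537). The Wnt5a call held without any 1 library.

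Tead2 was raised by Wnt5a and not called in SCM. Its levels ran from 2.49 to 4.28 CPM in complete media (median 3.58), 1.95 to 4.16 CPM in QCM (median 2.97) and 3.88 to 5.13 CPM in SCM with IgG (median 4.204). In Wnt5a with IgG all 6 libraries lay between 6.24 and 7.84 CPM (median 6.81), above every library of the 3 other groups with IgG. The log2 fold change against complete media was 0.98 ± 0.18 (SE) in Wnt5a (1.97-fold, edgeR adjusted p = 0.000167) and 0.30 with a 95% interval from -0.07 to 0.67 in SCM (edgeR adjusted p = 0.319). The Wnt5a call held without any 1 library.

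Tead1 moved less. It ran from 9.67 to 15.8 CPM in complete media (median 12.6), from 12.4 to 21.4 CPM in QCM (median 15.01) and from 11.4 to 26.5 CPM in SCM with IgG (median 18.6). In Wnt5a with IgG it ran from 15.99 to 21.9 CPM (median 19.5), with no overlap with complete media. It rose by 0.60 ± 0.19 (log2, SE) in Wnt5a (1.51-fold, edgeR adjusted p = 0.0225), just past the 1.5-fold cutoff, and was 0.58 ± 0.19 higher in SCM (1.495-fold, edgeR adjusted p = 0.0425), just under it. The Wnt5a call was lost in 12 of the 36 fits with 1 library left out (complete media replicate 2, 4 or 6, QCM 2, 3 or 5, SCM with IgG 2 or 5, Wnt5a with IgG 1 or 5, Wnt5a with anti-Ptk7 1 or 2), with log2 fold changes between 0.52 and 0.58, and the SCM value was called in 12 of the 36. Limma with quantile normalization, the test the study used, also lost the Wnt5a call (log2 fold change 0.52, limma adjusted p = 0.0610). Tead3 was called in neither medium. Its condition means ran from 6.51 to 8.46 CPM, and its log2 fold changes against complete media were -0.05 in SCM (95% interval -0.52 to 0.42) and 0.04 in Wnt5a (-0.43 to 0.51). Whether the TEAD genes differed from each other in their response was not tested.

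Vgll4, the cofactor that competes with Yap1 and TAZ for TEAD, went the other way. It ran from 72.7 to 95.6 CPM in complete media (median 80.7) and from 72.6 to 92.1 CPM in QCM (median 79.2). In SCM with IgG it ran from 43.8 to 70.9 CPM (median 67.8), and in Wnt5a with IgG from 55.8 to 67.1 CPM (median 57.2). All libraries of SCM with IgG and of Wnt5a with IgG lay below every library of complete media and of QCM. The log2 fold change against complete media was -0.37 ± 0.11 (SE) in SCM (edgeR adjusted p = 0.0299) and -0.47 ± 0.11 in Wnt5a (edgeR adjusted p = 0.00275), both short of the 1.5-fold cutoff and so not called. SCM with IgG replicate 1 was the lowest library, at 43.8 CPM, and the other 5 of that group lay between 60.5 and 70.9 CPM.

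Read against all genes, the share of the 10 that rose was 2 in SCM, where 4.93% of the 15497 genes were called higher, and 4 in Wnt5a, where 8.28% were. None was called lower in either. Vgll4 was the only one of the 10 that was lower with an edgeR adjusted p under 0.05, as 4.46% of all genes were in SCM and 9.45% in Wnt5a. Over 47 alternative settings Vgll4 stayed under an adjusted p of 0.05 in 43 for SCM and in 46 for Wnt5a. For SCM against complete media the libraries did not overlap for Tead4 (higher, as for 3.76% of all genes) and Vgll4 (lower, as for 2.53%). For Wnt5a they did not overlap for Tead1, Tead2 and Tead4 (higher, 6.85% of all genes) and Vgll4 (lower, 4.81%). The log2 fold changes of the 10 had a median of 0.15 in SCM and 0.27 in Wnt5a, and those of all genes tested a median of 0.01 in both.

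The remaining core genes were not called against complete media. Yap1, the other coactivator, had condition means of 59.95 to 82.0 CPM, and its log2 fold change was -0.02 in SCM (95% interval -0.32 to 0.28) and 0.35 in Wnt5a (0.04 to 0.65, edgeR adjusted p = 0.0945). Lats1, the kinase that phosphorylates Yap1 and TAZ, had means of 55.97 to 76.2 CPM, with -0.01 in SCM (-0.25 to 0.23) and 0.20 in Wnt5a (-0.04 to 0.43). Nf2, the membrane regulator, had means of 100.1 to 132 CPM, with -0.26 in SCM (-0.53 to 0.01) and -0.24 in Wnt5a (-0.52 to 0.03). Sav1, the scaffold, ran from 7.85 to 22.8 CPM in SCM with IgG and from 8.25 to 10.7 CPM in complete media, with a log2 fold change of 0.53 ± 0.18 (SE, edgeR adjusted p = 0.0509). That value was called when SCM with IgG replicate 2 (edgeR adjusted p = 0.0136) or 3 (0.0301) was left out, with log2 fold changes of 0.65 and 0.61. Without replicate 1, the highest library of that group, it was 0.33 (edgeR adjusted p = 0.290).

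**Figure D2:**
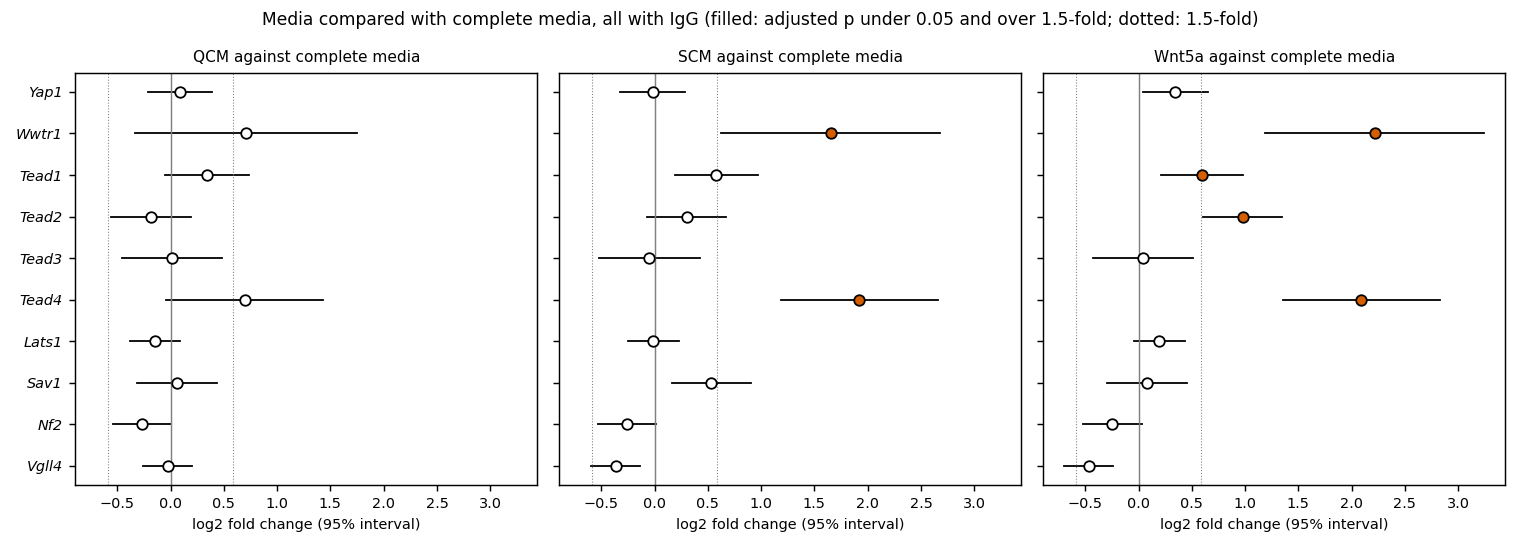
Log2 fold change (x axis) of the 10 genes (y axis) in QCM, SCM and Wnt5a against complete media, all with IgG, with 95% intervals from the edgeR fit. Filled points are called (edgeR adjusted p under 0.05 and over 1.5-fold), none in QCM, Wwtr1 and Tead4 in SCM, and Wwtr1, Tead1, Tead2 and Tead4 in Wnt5a.

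QCM addresses what fibroblast conditioned medium does without senescence. Against complete media, 0 of the 10 genes were called in QCM by edgeR, by limma or by DESeq2, where 0.374% of all genes were called in either direction, and 0 had an unadjusted p under 0.05, which 12% of all genes had. Fold changes and intervals of Tead4 and Wwtr1 were wide there, as 0.71 (95% interval -0.33 to 1.75) for Wwtr1 shows. Wwtr1 was at 1.32 without complete media replicate 5 and at 0.47 without replicate 4, and was called in neither. Directly between SCM and QCM, both with IgG, again 0 of the 10 were called by edgeR, where 0.903% of all genes were called in either direction. At an unadjusted p under 0.05 there were 4 of the 10, and 17% of all genes. Tead4 came nearest, 1.23 ± 0.35 higher in SCM (log2, SE, edgeR adjusted p = 0.0569), and it was called by limma, by DESeq2, with the replicate number as a block (edgeR adjusted p = 0.000240, in a fit that called 3.17% of all genes) and when 1 of 4 libraries was left out (QCM replicate 1, SCM with IgG replicate 3, or replicate 1 of either Wnt5a group). Vgll4 did not overlap between these groups (lower in SCM, as 1.1% of all genes), at -0.34 ± 0.11 (edgeR adjusted p = 0.106). Wwtr1 was 0.95 higher in SCM (95% interval -0.03 to 1.93, edgeR adjusted p = 0.316).

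Wnt5a and SCM with IgG differed for 1 of the 10 genes, Tead2, where 0.29% of all genes were called higher. Tead2 was 0.67 ± 0.18 higher in Wnt5a (log2, SE, 1.59-fold, edgeR adjusted p = 0.0327), and its libraries did not overlap between the groups, as for 0.858% of all genes. The call was lost when SCM with IgG replicate 1, 2, 4 or 6 or Wnt5a with IgG replicate 1, 4 or 5 was left out, with adjusted p between 0.0557 and 0.0920 and log2 fold changes between 0.63 and 0.68. Tead4 and Wwtr1 were 0.17 (95% interval -0.51 to 0.85) and 0.56 (-0.39 to 1.51) higher in Wnt5a and were not called, and Wwtr1 was at 0.84 without SCM with IgG replicate 1 and at 0.34 without Wnt5a with IgG replicate 1.

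The TEAD factors were set against each other as shares of their summed level per kilobase. By coding length, Tead1 had the largest share in all 6 conditions, with 49.5% ± 5.62 (SD, n = 6) in complete media and 42.4% ± 5.12 in Wnt5a with IgG. Tead4 made up 11.6% ± 4.96 in complete media, 15.6% ± 4.70 in QCM, 27.8% ± 6.52 in SCM with IgG and 27.5% ± 9.34 in Wnt5a with IgG. With anti-Ptk7 its share was 14.9% ± 4.18 in SCM and 19.98% ± 6.99 in Wnt5a. Tead3 held 25.2% in complete media and 15.2% in Wnt5a with IgG. By the length of all exons the shares of Tead4 were larger, 22.3% in complete media, 47.6% in SCM with IgG and 45.2% in Wnt5a with IgG. On either length, Tead4 had its 2 largest shares in SCM with IgG and Wnt5a with IgG. These shares are a description, without a test.

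**Figure D3:**
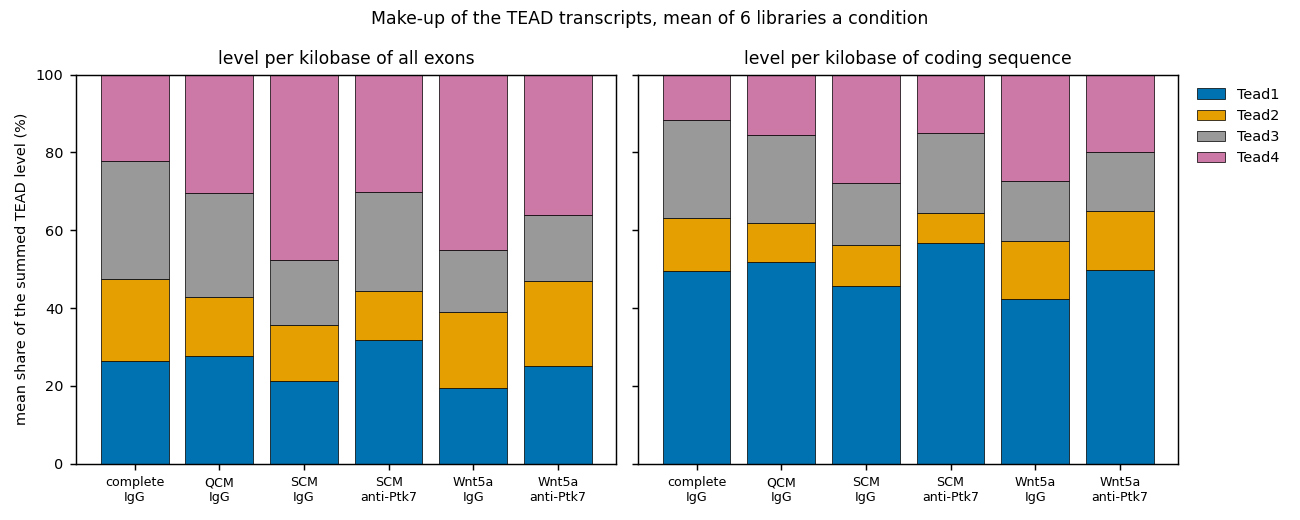
Mean share (y axis, percent) of Tead1, Tead2, Tead3 and Tead4 in their summed level per kilobase, in 6 libraries for each of the 6 conditions (x axis), by exon length (left) and coding length (right, the closer length for counts of coding reads). The Tead4 segment is widest in SCM with IgG and Wnt5a with IgG in both panels, 27.8% and 27.5% by coding length and 47.6% and 45.2% by exon length.

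Among the coactivators, Wwtr1 was below Yap1 per kilobase of coding sequence everywhere. The mean log2 ratio of Wwtr1 to Yap1 was -5.73 ± 1.48 (SD, n = 6) in complete media, -4.64 ± 0.77 in QCM, -3.54 ± 0.92 in SCM with IgG and -3.43 ± 0.74 in Wnt5a with IgG. Exon length raised each value by the same amount, to -4.92 in complete media and -2.73 in SCM with IgG. Over these 4 conditions the mean of Yap1 ranged from 63.6 to 82.0 CPM and that of Wwtr1 from 1.63 to 7.68 CPM.

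Anti-Ptk7 was compared with IgG within SCM and within Wnt5a. No group had anti-Ptk7 in complete media or QCM. An effect of the antibody without SCM or Wnt5a therefore cannot be told apart from an altered response to them. By edgeR, 0 of the 10 genes were called in SCM and 0 in Wnt5a, where 1.2% and 0.865% of all genes were called in either direction. At an unadjusted p under 0.05 there were 2 of the 10 in each, and 17.1% and 15% of all genes. limma and DESeq2 also called 0 in both. Tead4 had the widest fold change in each. In SCM with anti-Ptk7 it ran from 3.49 to 8.30 CPM (median 5.08), against 6.35 to 17.8 CPM with IgG, a log2 difference of -1.06 ± 0.35 (SE, edgeR adjusted p = 0.0877). In Wnt5a with anti-Ptk7 it ran from 4.76 to 16.1 CPM (median 6.94), against 7.84 to 26.2 CPM with IgG, a difference of -0.68 ± 0.34 (edgeR adjusted p = 0.338), or -0.36 without Wnt5a with IgG replicate 1. The antibody and IgG libraries overlapped in both media, but in each medium Tead4 was lower with anti-Ptk7 in all 6 libraries when set beside the IgG library of the same number. By the same count Tead2 in SCM was lower in all 6, and Nf2 and Sav1 in Wnt5a were lower in 0 of 6. The share of all genes with such a uniform direction was not counted. With the replicate number as a block, Tead4 was called lower in SCM (log2 fold change -1.02, edgeR adjusted p = 0.00271), in a fit that called 2.53% of all genes in either direction. The mice carry numbers too, but the labels do not tie them to those of the libraries, so whether the block is the right fit cannot be told here.

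For Tead2 the 6 libraries of SCM with anti-Ptk7, from 2.35 to 3.73 CPM (median 2.91), all lay below those with IgG, as for 0.994% of all genes, with a log2 difference of -0.52 ± 0.18 (SE, edgeR adjusted p = 0.116). In Wnt5a with anti-Ptk7 its range widened to 3.70 to 8.54 CPM and the difference was -0.16 (95% interval -0.51 to 0.20). Nf2 in Wnt5a with anti-Ptk7 lay between 124 and 145 CPM, above all 6 libraries with IgG (87.2 to 113 CPM), as for 0.949% of all genes, at 0.38 ± 0.13 (log2, SE, edgeR adjusted p = 0.131). Wwtr1 spread widely with anti-Ptk7 in SCM, from 1.33 to 11.3 CPM, and its difference was 0.01 (95% interval -0.94 to 0.97), so a change of up to about that width in either direction was not detectable here. In Wnt5a the Wwtr1 difference was -0.24 (-1.19 to 0.70).

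Whether the antibody acted differently in the 2 media was tested as the difference of its effects. By edgeR, 0 of the 10 genes and 0 of 15497 genes (0%) were called, and 1 of the 10, Sav1, had an unadjusted p under 0.05, as 3.87% of all genes had. limma and DESeq2 called 0 of the 10 as well. Sav1 was -0.36 (95% interval -0.73 to 0.01) with the antibody in SCM and 0.37 (0.00 to 0.74) in Wnt5a, a difference of 0.73 ± 0.26 (SE, edgeR adjusted p = 0.999). Without SCM with IgG replicate 1 the SCM value of Sav1 was -0.16. For Tead4 the difference was 0.38 (95% interval -0.60 to 1.36), and between 0.05 and 0.71 with replicate 1 of SCM with IgG or of either Wnt5a group left out.

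**Figure D4:**
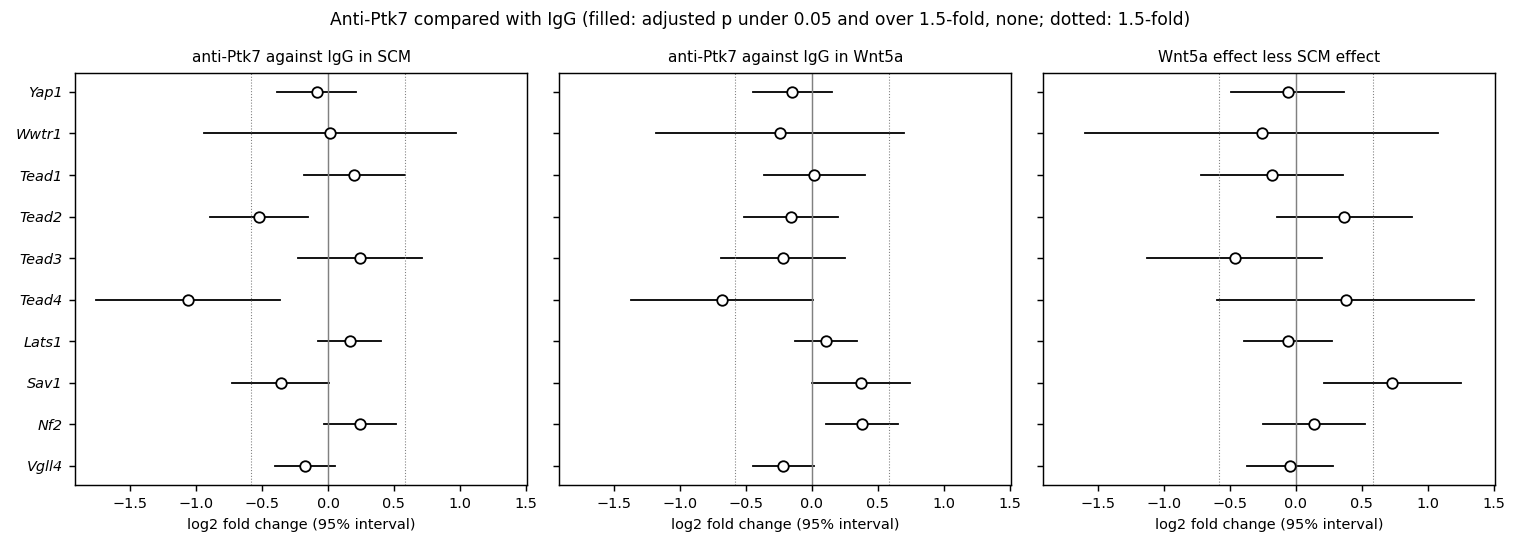
Log2 fold change (x axis) of the 10 genes (y axis) for anti-Ptk7 relative to IgG, within SCM, within Wnt5a and as the difference of these effects, with 95% intervals from the edgeR fit. No point is filled, since no gene was called, and Tead4 has the lowest values with IgG as reference, -1.06 in SCM and -0.68 in Wnt5a.

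Groups with anti-Ptk7 were also set against complete media with IgG, a comparison in which medium and antibody change together and which was fitted in the main setting alone. In SCM with anti-Ptk7, Wwtr1 (log2 fold change 1.67, edgeR adjusted p = 0.0255) and Tead1 (0.78, 0.00559) rose, 2 of the 10, where 4.46% of all genes were called higher, and Tead4 was not called (0.86, 95% interval 0.12 to 1.60, edgeR adjusted p = 0.119). Vgll4 was at -0.54 (edgeR adjusted p = 0.00130), short of the 1.5-fold cutoff. In Wnt5a with anti-Ptk7, Wwtr1 (1.97, edgeR adjusted p = 0.00274), Tead1 (0.61, 0.0133), Tead2 (0.82, 0.000639) and Tead4 (1.41, 0.00273) rose, where 10.5% of all genes were called higher. There Vgll4, at 41.6 to 59.7 CPM, fell by 0.68 (log2, edgeR adjusted p = 1.96e-05), past the 1.5-fold cutoff, where 3.94% of all genes were called lower. These comparisons share the complete media libraries with those above.

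Wnt5a was added to complete media, so against QCM the ligand and the base medium both differ, and with anti-Ptk7 the antibody as well. Higher in Wnt5a with IgG than in QCM were Wwtr1 (log2 fold change 1.51, edgeR adjusted p = 0.0204), Tead2 (1.16, 2.36e-05) and Tead4 (1.39, 0.00337), where 6.19% of all genes were called higher. In Wnt5a with anti-Ptk7, Wwtr1 (1.26, edgeR adjusted p = 0.0418) and Tead2 (1.00, 5.84e-05) rose against QCM, where 8.75% of all genes were called higher, and Vgll4 fell by 0.66 (log2, edgeR adjusted p = 3.36e-05), where 5.9% were called lower. Ordered by mean level, no neighbouring pair of conditions was called for any of the 10 genes, and 1 adjacent pair had an edgeR adjusted p under 0.05, Tead2 in SCM with IgG (4.30 CPM) and Wnt5a with anti-Ptk7 (6.16 CPM), at 0.0424. The order of the other adjacent conditions is not resolved. Tead4 was ordered from complete media through QCM, SCM with anti-Ptk7, Wnt5a with anti-Ptk7 and SCM with IgG to Wnt5a with IgG, and Wwtr1 from complete media through QCM, SCM with IgG, SCM with anti-Ptk7 and Wnt5a with anti-Ptk7 to Wnt5a with IgG.

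The rest of the pathway was read from 41 other Hippo genes, of which 37 passed the filter on low counts. Of these, 9 rose and 0 fell in SCM, and 11 rose and 0 fell in Wnt5a, both against complete media and to be read beside the 4.93% and 8.28% of all genes called higher. The median log2 fold change over the 37 was 0.23 in SCM and 0.35 in Wnt5a. Amotl1, an angiomotin that holds Yap1 and TAZ in the cytoplasm, rose by 2.96 ± 0.59 (log2, SE) in SCM and 3.99 ± 0.60 in Wnt5a, and its relative Amotl2 by 0.84 and 1.26. Ajuba, a LIM protein that restrains Lats, went from 49.3 CPM in complete media to 140 CPM in SCM with IgG and 180 CPM in Wnt5a with IgG (log2 fold changes 1.51 and 1.87). Vgll3, a TEAD-binding relative of Vgll4, rose by 1.90 and 2.06, and Ptpn14, a phosphatase that binds Yap1, by 2.51 and 2.94. Wwc2, a partner of Lats, rose by 1.55 and 2.16, and Rassf5 by 1.13 and 0.92. In complete media Amotl1 averaged 1.80 CPM, Vgll3 1.79 CPM and Ptpn14 0.683 CPM, so their fold changes start from low levels.

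Wtip (log2 fold change 1.21) and Rassf1 (0.61) rose in SCM and were not called in Wnt5a, and Lats2 (1.49), Wwc1 (0.67), Fat1 (0.69) and Mink1 (0.89) rose in Wnt5a and were not called in SCM. Set directly against each other, Wnt5a and SCM differed for none of them by edgeR, so these calls do not show a difference between the media. The Mst kinases Stk3 and Stk4 and the Mob1 cofactors of Lats were not called. In SCM against complete media the log2 fold change was 0.05 for Stk3, 0.24 for Stk4, 0.04 for Mob1a and 0.26 for Mob1b, and in Wnt5a 0.25, 0.41, 0.22 and 0.29, with Stk4 in Wnt5a past the adjusted p (edgeR adjusted p = 0.0115) but not the fold cutoff. Lats2, the relative of Lats1 and itself a known target of Yap1, was 0.95 ± 0.42 higher in SCM (SE, edgeR adjusted p = 0.144). The count of 9 in SCM went down to 6 without complete media replicate 2, 3 or 4 or SCM with IgG replicate 1 or 5, and that of 11 in Wnt5a ran from 8 to 13 over the libraries left out, with 8 without Wnt5a with IgG replicate 1.

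For the 37 genes, edgeR called 0 in QCM (7 at an unadjusted p under 0.05, as in the brackets that follow), 0 in SCM against QCM (14), 0 in Wnt5a against SCM (10), 0 with anti-Ptk7 in SCM (11) and 0 for the difference of the antibody effects (1). Of all genes, 12%, 17%, 18.9%, 17.1% and 3.87% had an unadjusted p under 0.05 in these comparisons. With anti-Ptk7 in Wnt5a 2 of the 37 were called, where 0.865% of all genes were, and 6 had an unadjusted p under 0.05, as 15% of all genes had. Vgll3 fell by 1.65 ± 0.40 (log2, SE, edgeR adjusted p = 0.0171), from a mean of 7.50 CPM with IgG to 2.37 CPM, and Rassf5 rose by 0.88 ± 0.24 (edgeR adjusted p = 0.0421), from 7.24 to 13.3 CPM. Without Wnt5a with anti-Ptk7 replicate 5 neither was called, and 1 of the 2 was lost in 10 other fits that left out 1 library, among them each of the 6 libraries of Wnt5a with IgG.

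**Figure D5:**
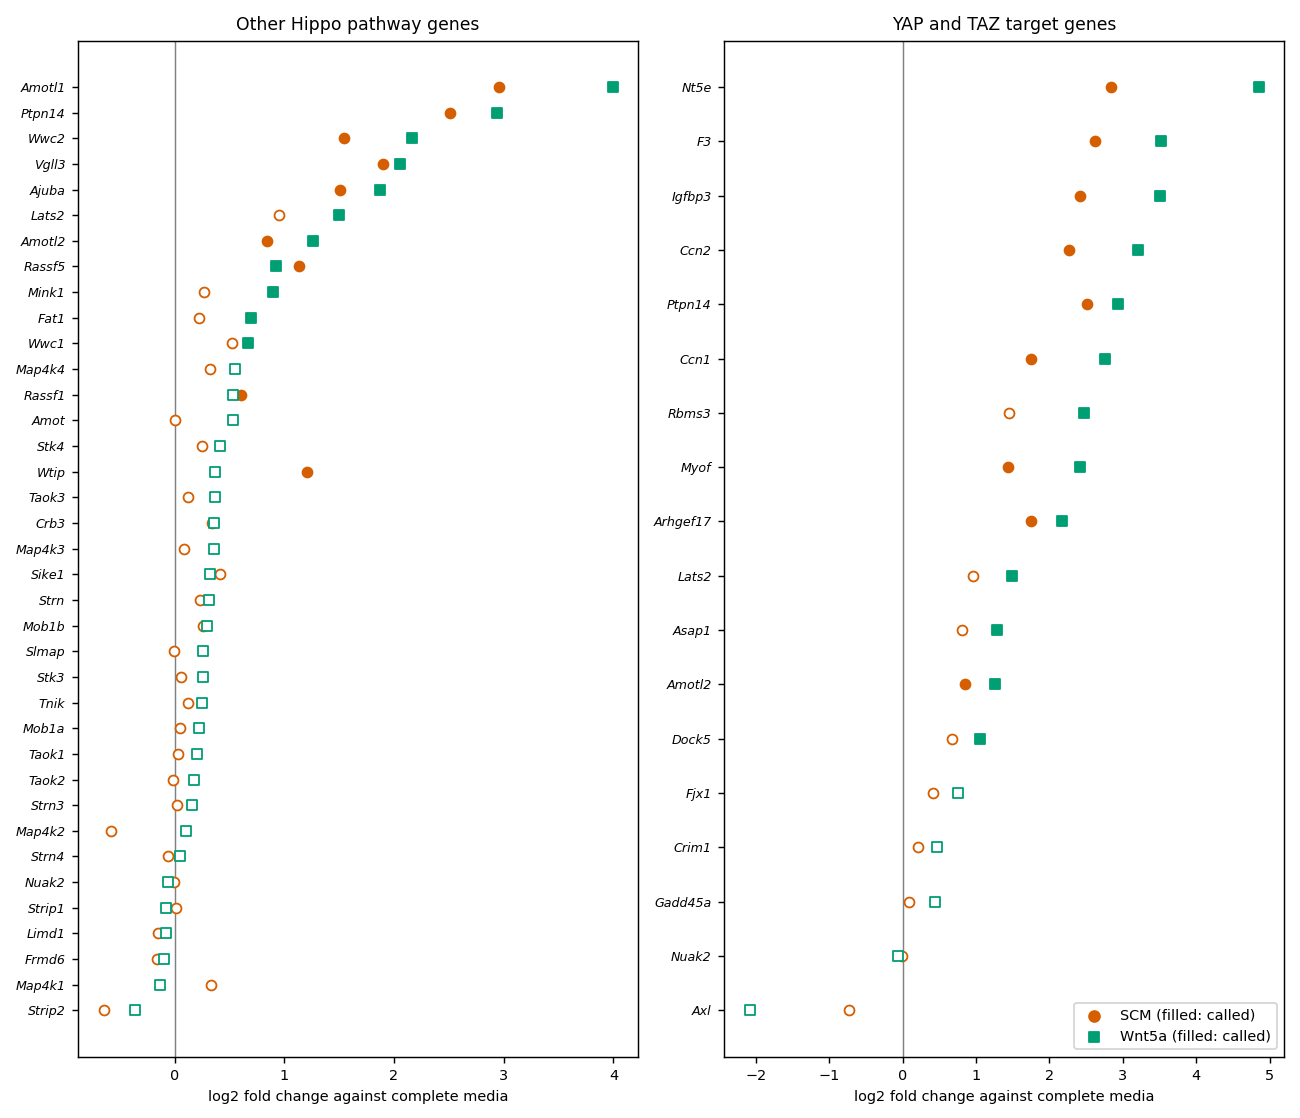
Log2 fold change against complete media (x axis) in SCM (circles) and Wnt5a (squares), both with IgG, of the 37 other Hippo genes tested (left) and the 18 target genes tested (right), ordered by the Wnt5a value. Filled symbols are called; 9 and 11 of the 37 and 9 and 13 of the 18 are, each of them higher.

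The RNA of 22 known target genes of Yap1 and TAZ was followed too, and TEAD activity itself was not measured. Of these targets 18 passed the filter, and 4 of the 22 are also among the Hippo genes above. In SCM 9 rose and 0 fell, and in Wnt5a 13 rose and 0 fell, where 4.93% and 8.28% of all genes were called higher. The median log2 fold changes over the 18 were 1.19 and 1.83, against 0.01 over all genes in both. Ccn1, a secreted matrix protein, averaged 19.4 CPM in complete media, 27.7 in QCM, 65.6 in SCM with IgG and 131 in Wnt5a with IgG, and rose by 1.75 ± 0.28 (log2, SE, edgeR adjusted p = 5.38e-05) and 2.75 ± 0.29 (1.79e-08). Ccn2, its relative, averaged 9.86, 13.5, 47.4 and 90.8 CPM in the same groups and rose by 2.27 ± 0.52 (edgeR adjusted p = 0.00308) and 3.21 ± 0.53 (4.42e-05). Ankrd1, another known target, had a mean of 0.313 CPM and was not tested. In QCM 0 of the 18 were called (0 at an unadjusted p under 0.05, against 12% of all genes), and limma and DESeq2 also called 0.

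Between SCM and QCM, Ccn1 (1.24 ± 0.27, log2, SE, edgeR adjusted p = 0.0166) and F3 (1.77 ± 0.43, 0.0280), which encodes tissue factor, were called higher in SCM, 2 of 18 where 0.768% of all genes were. Ccn1 was also higher in Wnt5a than in SCM (1.00 ± 0.27, edgeR adjusted p = 0.0348), 1 of 18 where 0.29% of all genes were. Anti-Ptk7 lowered Ccn2 in both media: in SCM from a mean of 47.4 to 8.47 CPM (log2 fold change -2.50 ± 0.52, SE, edgeR adjusted p = 0.00618, no overlap of the libraries), and in Wnt5a from 90.8 to 25.1 CPM (-1.86 ± 0.50, edgeR adjusted p = 0.0332). With anti-Ptk7, Ccn1 averaged 37.3 CPM in SCM and 115 CPM in Wnt5a, with log2 differences of -0.81 (edgeR adjusted p = 0.101) and -0.19 (0.811). Ccn2 was 1 of 18 targets called in each, where 1.2% (SCM) and 0.865% (Wnt5a) of all genes were called in either direction. The Wnt5a call of Ccn2 was lost without Wnt5a with IgG replicate 6 or Wnt5a with anti-Ptk7 replicate 2, 4 or 5. The 9 targets in SCM against complete media became 5 without complete media replicate 2 and 6 without its replicate 3 or 4 or SCM with IgG replicate 5, the 2 against QCM became 0 without QCM replicate 2 or 3 and 1 without QCM replicate 4 or SCM with IgG replicate 1 or 5, and Ccn1 in Wnt5a against SCM was lost without SCM with IgG replicate 1, 2, 3 or 4 or Wnt5a with IgG replicate 1 or 5.

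The genes whose log2 CPM followed each of the 10 most closely over the 36 libraries are given as a description, with Pearson's r and Spearman's rho. All libraries share the conditions, so part of each value is the difference between conditions. Tead4 was followed by Krt7 (r = 0.92, rho = 0.89), a keratin, Tagln2 (0.91, 0.91) and Ajuba (0.91, 0.89), and within conditions these r values were still 0.81, 0.82 and 0.77. Wwtr1 was followed by Anxa8 (0.86, 0.81), Samd5 (0.85, 0.80) and Rbms1 (0.85, 0.79). Vgll4 was followed by Osgep (0.90, 0.91), Pck2 (0.88, 0.90) and Pus1 (0.88, 0.90). For Tead2 the nearest were Thbs1 (0.83, 0.83), Angptl2 (0.80, 0.71) and Add2 (0.80, 0.69), and within conditions r went down to 0.49, 0.05 and 0.22. For Tead1 they were Mlkl (0.82, 0.78), Acot10 (0.77, 0.80) and Dok2 (0.77, 0.76).

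The other 5 had looser or different company. Lats1 was followed by Slc6a20b (r = 0.86, rho = 0.86), Sacm1l (0.83, 0.82) and Atp13a3 (0.81, 0.81), and Nf2 by Anapc1 (0.80, 0.73), Hif1an (0.79, 0.82) and Ptprs (0.78, 0.65). Yap1 was followed by Psap (0.73, 0.68), F2rl1 (0.73, 0.70) and Rab5c (0.71, 0.66), and Sav1 by Metrnl (0.71, 0.65), Dstn (0.69, 0.59) and Casp8 (0.69, 0.63). Tead3 had the lowest values, with the pseudogenes Gm47811 (0.62, 0.62) and Gm10653 (0.60, 0.56) and with Tfap4 (0.59, 0.58).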

How the data were processed

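RNA of 36 organoid cultures was sequenced by the authors from Smart-Seq V4 cDNA with Nextera XT libraries. Per the labels and the study's methods, reads were aligned with GSNAP to mm10 and reads in coding sequence were counted; annotation and strand are not given in the sources used here. The deposited values are whole-number counts per Ensembl gene. A series-wide table with the same 36 library names was not used.

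Here 15497 of 52636 genes passed edgeR's filterByExpr. Conditions were compared in 1 edgeR fit (4.0.16, R 4.3.3; TMM factors 0.908 to 1.03, robust quasi-likelihood, Benjamini-Hochberg over all genes tested), called at adjusted p under 0.05 and over 1.5-fold, after the study's cutoffs. Limma (3.58.1, voom, quantile-normalized, as the study used, or TMM-scaled), DESeq2 (1.42.0), other scalings, filters and cutoffs, a replicate block and each library left out were alternatives. CPM used library totals times TMM factors, log2 CPM a prior count of 2, and per-kilobase levels GENCODE vM21 coding or exon unions; 147 listed genes had no GENCODE symbol. Promoters came from RefSeq (GRCm38.p6). On data simulated for Wnt5a against complete media (15267 genes), edgeR recovered 155 of 200 changed genes, 70 of 100 at 2-fold and 85 of 100 at 3-fold, with 1 false call. Replicate pairs differed by a chi-square of 7.28 to 81.0 per gene, so none was a repeated library.

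The genes and lists were chosen with earlier results of these data known. Named were all 10 genes; other Hippo genes called anywhere, with Stk3, Stk4, Lats2, Mob1a and Mob1b; the targets Ccn1, Ccn2, Ankrd1, Amotl2 and Lats2 and those called with anti-Ptk7; and 3 genes per member by Pearson's r. F3 was added after its values were seen.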

Additional observations from a re-analysis of the deposited data

Results flagged for a closer look

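In 3 of the 60 groups formed by 10 genes and 6 conditions, 1 library lay far from the other 5, with a gap to its nearest neighbour above Dixon's 95% critical value; chance alone marks about 1 in 20 groups. Wwtr1 was at 10.995 CPM in Wnt5a with anti-Ptk7 replicate 1, against 5.08 to 6.06 CPM in the other libraries of that condition. Vgll4 was at 43.8 CPM in SCM with IgG replicate 1, against 60.5 to 70.9 CPM. Sav1 was at 13.96 CPM in SCM with anti-Ptk7 replicate 1, against 9.4995 to 10.96 CPM.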

How the results depend on the processing

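No call among the 10 genes changed direction under any alternative run, but uncalled values near 0 did: Tead3 in QCM had the opposite sign in 18 of 47 settings, Wwtr1 with anti-Ptk7 in SCM in 9 of 46, Tead3 in Wnt5a in 6 and Yap1 in SCM in 4 of 47. Of the 10 genes, the count called in SCM against complete media, 2, was 1 by limma with quantile normalization and by a test against 1.5-fold (glmTreat), Wwtr1 being lost in both, 4 with no fold cutoff, and 1 to 4 with 1 library left out; 4 was reached without SCM with IgG replicate 2. In Wnt5a the 4 called became 2 by glmTreat and 3 to 4 with 1 library left out; the gene lost by limma with quantile normalization, library size alone, upper-quartile scaling and no filter was Tead1, at the cutoff. For SCM against QCM the 0 became 1, Tead4 each time, by limma with either normalization, DESeq2, library size alone, at least 10 counts in every library, only the groups compared and a replicate block, and 0 to 1 with 1 library left out. For Wnt5a against SCM the 1 became 0 by DESeq2, with no filter, by glmTreat and with only the groups compared, and 0 to 1 with 1 library left out. DESeq2 gave no adjusted p for that gene, Tead2.

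Of the other Hippo genes, the 9 called in SCM became 5 with at least 10 counts in every library, 6 with no filter and 3 by glmTreat (6 to 9 with 1 library left out), and the 11 in Wnt5a became 6, 11 and 5 (8 to 13), and 20 with no fold cutoff. Against QCM the 0 in SCM became 2 by DESeq2 and with only the groups compared (0 to 1 with 1 library left out). In Wnt5a against SCM the 0 became 1 by DESeq2. With anti-Ptk7 in SCM the 0 became 3 by limma with either normalization, 2 by DESeq2 and 1 with at least 10 counts in every library (0 to 3), and in Wnt5a the 2 became 1 with no filter or with at least 10 counts, 0 by glmTreat and 0 to 2 with 1 library left out. The causes of these changes were not tested.

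With the replicate number as a block, members called became 1 for SCM against QCM and 1 for anti-Ptk7 in SCM, Tead4 in both (log2 1.23 and -1.02, edgeR adjusted p = 0.000240 and 0.00271), and the other Hippo genes called became 2 in QCM, 5 in SCM against QCM and 4 with anti-Ptk7 in SCM. The block raised the share of all genes called as well, from 0.374% to 1.14%, 0.903% to 3.17% and 1.2% to 2.53% in these comparisons. Same-numbered libraries deviated together with a mean correlation of 0.09, against -0.02 for different numbers. Of the 90 same-numbered pairs 34 were over 0.1, and 16 of 36 libraries correlated best with their own number out of 6. The correlation was thus higher for equal numbers, but the labels do not tie the numbers to mice. Whether the libraries are paired by number is therefore not settled here.
The 7 genes that differed among the conditions became 5 to 8 with 1 library left out. Wwtr1 had 4 to 57 counts in the libraries of complete media and was not tested with at least 10 counts in every library. Of the targets, limma called 6 rather than 9 in SCM against complete media. By limma with quantile normalization, the uncalled log2 fold changes in SCM were 0.19 for Tead2 and 0.35 for Sav1, and with TMM scaling that of Wwtr1 in QCM was 1.12.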

Other observations

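The library numbered 1 had the highest Tead4 level of its group in each of the 6 conditions, with 5.73 CPM in complete media, 7.85 CPM in QCM, 17.8 CPM in SCM with IgG, 8.30 CPM in SCM with anti-Ptk7, 26.2 CPM in Wnt5a with IgG and 16.1 CPM in Wnt5a with anti-Ptk7. This was noticed after the values were seen and was not tested. The same libraries had the highest Wwtr1 in 4 of the 6 conditions, all but complete media and QCM. Whether equal numbers mark the same mouse is not given in the labels.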
